A study of Arabidopsis thaliana with 16 samples.

Results

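The genes described are 10 *Arabidopsis thaliana* genes of the phosphate starvation response, chosen by locus identifier out of 27444 nuclear protein-coding genes. They are *SPX1* (AT5G20150), *SPX3* (AT2G45130), *PHT1;1* (AT5G43350), *PHT1;4* (AT2G38940), *PAP17* (AT3G17790), *MGD2* (AT5G20410), *MGD3* (AT2G11810), *SQD1* (AT4G33030), *SQD2* (AT5G01220) and *PLDZ2* (AT3G05630). H2A.Z, a variant of histone H2A, and histone H3 were profiled by ChIP-seq in Col-0 seedlings of 4 genotypes, with 2 replicates of each antibody and genotype and 16 libraries in all. The genotypes were the double mutant *arp6-1 mbd9-3*, the single mutants *arp6-1* and *mbd9-3*, and wild type. ARP6 is a subunit of the SWR1 complex, which deposits H2A.Z, and MBD9 is a methyl-CpG-binding domain protein that interacts with it. Both alleles are T-DNA insertions. Shoots were taken 13 days after germination from seedlings grown in long days on Murashige and Skoog medium with 1% sucrose, a medium that supplies phosphate. Each replicate was about 0.5 g of tissue grown on separate plates and was divided between both antibodies. Levels of *ARP6* and *MBD9* transcripts, and of markers of the tissue, were not analysed here.

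The values are summits, the single positions at which enrichment within a called peak is highest, deposited per replicate in 16 lists. Of these, 8 lists compare H2A.Z with H3 of the same genotype and replicate. The other 8 compare H2A.Z between genotypes and hold loss summits, positions where a mutant had less H2A.Z than wild type, or *arp6-1 mbd9-3* less than *arp6-1*. The lists over H3 held 1243 and 1265 summits in *arp6-1 mbd9-3*, 3827 and 7506 in *arp6-1*, 15024 and 17839 in *mbd9-3*, and 29980 and 26536 in wild type. Each summit carries a score, −log10 of the q value, with 2.0 as the lowest deposited. The score measures the evidence for a peak and not the amount of H2A.Z, so scores are given within a list and are not compared between genotypes. A gene was called where a summit lay in the annotated gene extent plus 500 bp on both sides in both replicates. With 2 replicates per genotype, a two-sided exact permutation test could not give a p below 0.333, and no test was made. A gene without a summit had no peak that passed the caller's limit, which does not show that H2A.Z was absent.

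Plants short of phosphate take up more of it, release it from organic compounds and replace phospholipids of their membranes with galactolipids and sulfolipids. The transcription factor PHR1 drives much of this response through a promoter element called P1BS, and SPX proteins hold PHR1 back while phosphate is plentiful. In well-fed plants many of these genes are weakly expressed, and H2A.Z is often found in genes that respond to the environment.

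The P1BS element was searched for as GNATATNC, which equals its own reverse complement, so that a single search covers both strands. From 250 bases before to 50 bases after the annotated start, 6 of the 10 genes held at least 1 match, against 6.25% of all 27444 protein-coding genes. These were *SPX1*, *SPX3*, *PHT1;4*, *MGD2*, *SQD1* and *PLDZ2*. In a window from 1000 bases before the start, chosen after the data were seen, the count was 8 of 10, against 20.9% of all genes, and *PAP17* and *MGD3* were without a match. A match describes the letters only and is not evidence of binding. The bases from 220 before to 30 after the start, read from RefSeq assembly TAIR10.1 5′ to 3′ on the gene's strand, are printed with P1BS matches in capitals. The 4 genes stand for different sets of calls over H3, with a summit in both replicates of *arp6-1*, *mbd9-3* and wild type (*SPX3*), of *mbd9-3* and wild type (*MGD2*), of wild type alone (*MGD3*) or in no list (*SQD1*).
SPX3 promoter, chr2:18606190-18606439, + strand: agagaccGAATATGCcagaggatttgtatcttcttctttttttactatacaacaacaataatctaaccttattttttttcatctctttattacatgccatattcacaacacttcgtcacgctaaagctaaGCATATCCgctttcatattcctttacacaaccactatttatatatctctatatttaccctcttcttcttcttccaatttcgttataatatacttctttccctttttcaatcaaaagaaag
MGD2 promoter, chr5:6896243-6896492, + strand: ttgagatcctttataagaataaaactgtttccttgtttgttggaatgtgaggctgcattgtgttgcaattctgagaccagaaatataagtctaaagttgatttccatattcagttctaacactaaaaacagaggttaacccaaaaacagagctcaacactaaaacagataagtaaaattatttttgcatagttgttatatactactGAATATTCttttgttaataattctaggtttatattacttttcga
MGD3 promoter, chr2:4742942-4743191, + strand: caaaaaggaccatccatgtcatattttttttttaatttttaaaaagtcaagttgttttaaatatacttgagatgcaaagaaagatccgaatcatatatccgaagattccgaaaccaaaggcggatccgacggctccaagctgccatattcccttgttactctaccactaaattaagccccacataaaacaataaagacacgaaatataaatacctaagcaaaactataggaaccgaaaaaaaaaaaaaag
SQD1 promoter, chr4:15935153-15935402, + strand: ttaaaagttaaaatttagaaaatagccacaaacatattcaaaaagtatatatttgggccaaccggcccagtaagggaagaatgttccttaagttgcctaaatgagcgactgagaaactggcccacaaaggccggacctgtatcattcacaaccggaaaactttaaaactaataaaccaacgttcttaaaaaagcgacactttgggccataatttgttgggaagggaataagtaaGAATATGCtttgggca

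Both *SPX3* matches lay before the start, the first base of each at −213 and −90. The *MGD2* promoter held a match at −14 and, past the printed bases, another at +38, whereas the *SQD1* match began at +15. Matches were thus found in genes with H2A.Z summits and in *SQD1*, which had none, and *MGD3* had summits without a match.

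In *arp6-1 mbd9-3* none of the 10 genes had an H2A.Z summit over H3 in either replicate, as was the case for 93.8% of all protein-coding genes, while 1.57% were called. In *arp6-1* 1 gene was called, *SPX3*, against 10.3% of all genes. In *mbd9-3* 4 genes were called, *SPX3*, *PHT1;4*, *MGD2* and *SQD2*, against 33.6% of all genes. In wild type 8 genes were called, against 56.6% of all genes, and the exceptions were *PHT1;1*, with a summit in replicate 1 only, and *SQD1*, with none. The genotypes thus ranked alike for the 10 genes and for all genes. Of the 8 genes with wild-type summits in both replicates, 0, 1 and 4 were called in the double mutant, *arp6-1* and *mbd9-3*, against 2.73%, 17.9% and 57.0% of the 15535 genes with such summits. A single gene moves a share of the 10 genes by 10 percentage points.

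The loss lists gave the same order, but they reuse the H2A.Z libraries of the lists over H3 and are not independent of them. Loss in *mbd9-3* compared with wild type was called for 2 genes, *PHT1;4* and *MGD3*, against 11.9% of all genes. Loss in *arp6-1* compared with wild type was called for 6 genes, against 49.0% of all genes. Loss in *arp6-1 mbd9-3* compared with wild type was called for 8 genes, against 59.5% of all genes, and these were the genes with wild-type summits in both replicates. Loss in *arp6-1 mbd9-3* compared with *arp6-1* was called for *SPX3* alone, against 3.54% of all genes. The 3 comparisons with wild type share the wild-type H2A.Z libraries of each replicate, so their calls are not independent of each other. Of the 8 phosphate genes with wild-type summits in both replicates, 2 were called for loss in *mbd9-3*, against 17.2% of the 15535 genes with such summits. The counts were 6 for *arp6-1*, against 72.3%, and 8 for the double mutant, against 86.2%. Compared with *arp6-1*, 1 of these 8 was called in the double mutant, against 6.01%.

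**Figure D1:**
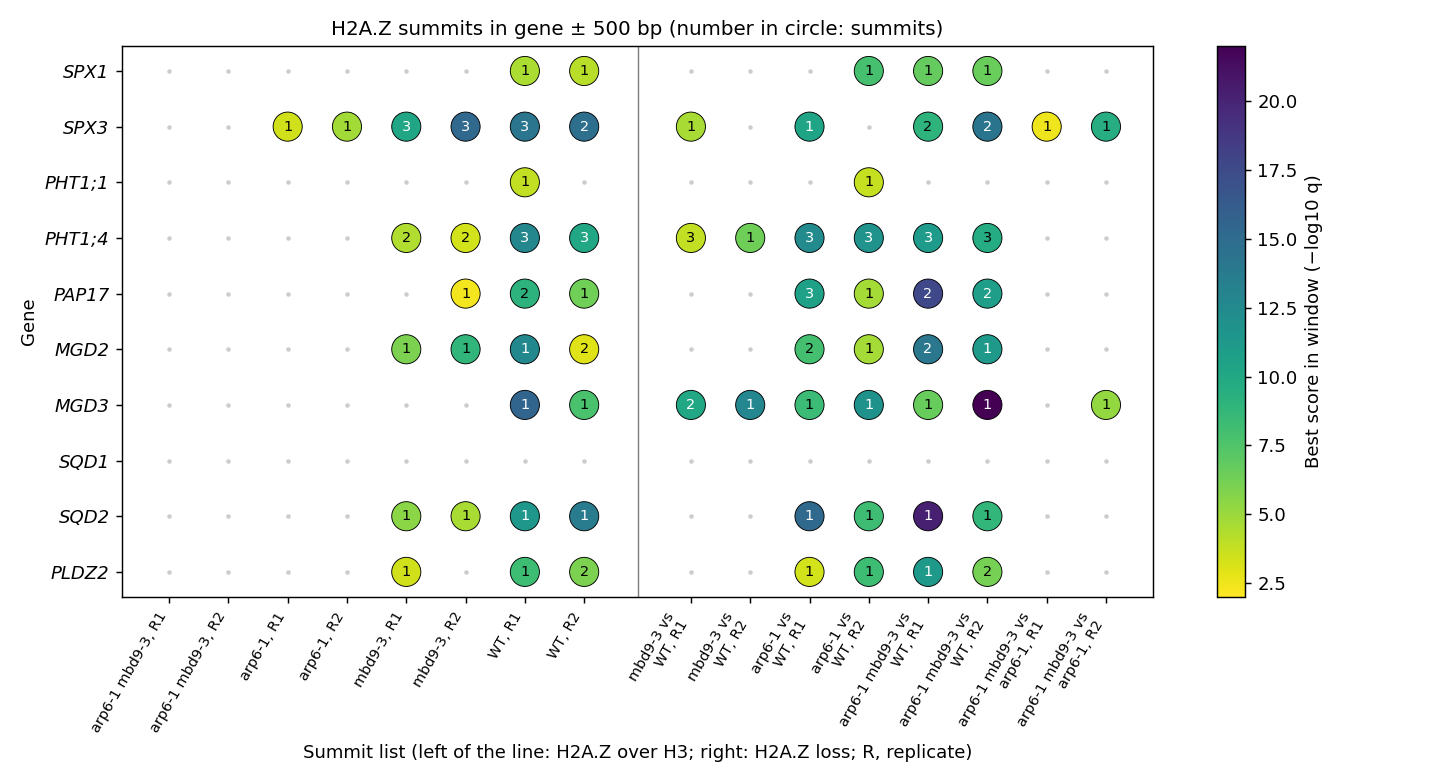
H2A.Z summits of the 10 genes (rows) in each of the 16 lists (columns), with lists over H3 left of the line and loss lists right of it. A circle holds the number of summits in the gene extent plus 500 bp and its colour gives the best score (−log10 q), and a small grey dot stands for no summit. The *arp6-1 mbd9-3* columns over H3 are empty, *SPX3* is the only gene in the *arp6-1* columns, and *SQD1* has no summit in any list.

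**Figure D2:**
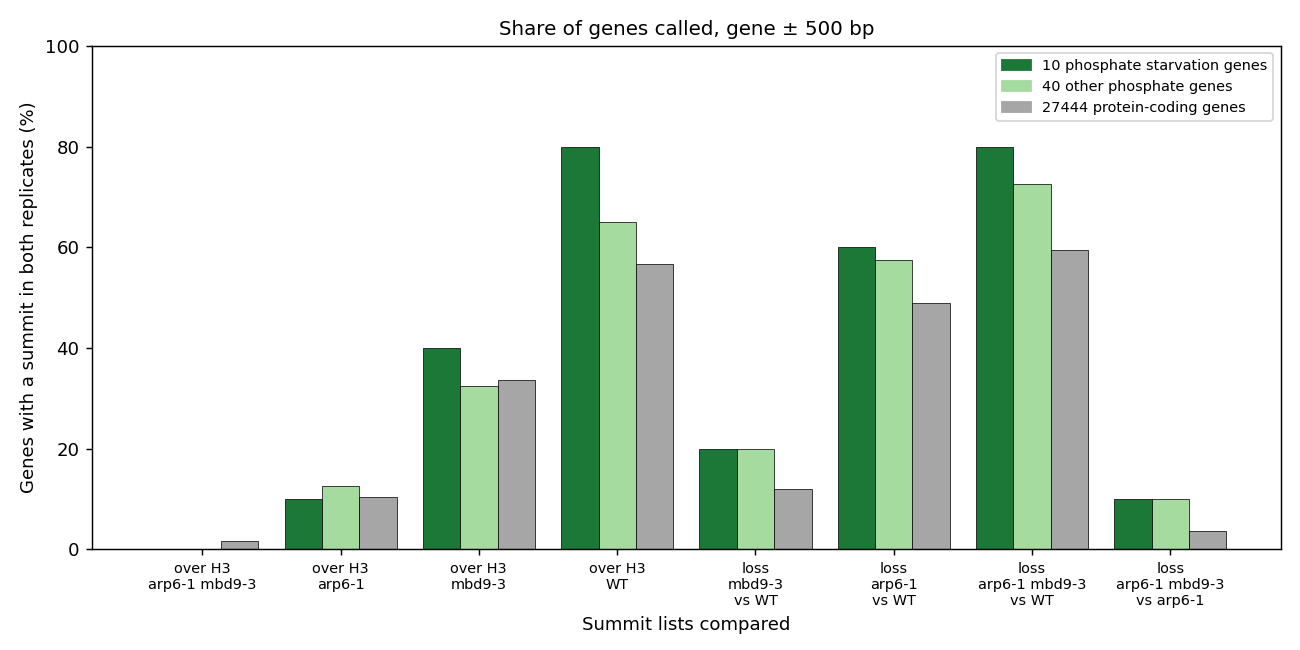
Percentage of genes with a summit in both replicates, with 1 group of bars per comparison, for the 10 phosphate starvation genes, 40 other protein-coding phosphate genes and all 27444 protein-coding genes. No bar has an error, since each is a share of a fixed list, and over H3 the bars of the 10 genes stand for 0 genes in *arp6-1 mbd9-3*, 1 in *arp6-1*, 4 in *mbd9-3* and 8 in wild type.

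The SPX proteins sense inositol pyrophosphates and restrain PHR1. *SPX1* (chr5:6802282-6803655, + strand) had no summit over H3 in any mutant. In wild type its only summits lay 319 bp (score 4.50) and 313 bp (4.11) after the start in replicates 1 and 2, in the coding sequence of exon 1. They were weak peaks, since only 30.7% and 30.9% of the scores in their lists were lower. Loss in *arp6-1 mbd9-3* compared with wild type was found at the same bases, +319 (6.73) and +313 (6.56). Loss in *arp6-1* was found at +313 (7.87) in replicate 2 only, and *mbd9-3* gave no loss summit. *SPX1* was thus missing from the *mbd9-3* lists over H3 without being called for loss in that mutant.

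*SPX3* (chr2:18606410-18607853, + strand) held the most summits over H3 in the mutants. In *arp6-1* its summits lay at +1826 (3.42) in replicate 1 and at +1162 (4.76) in replicate 2. These are 664 bp apart, and replicate 2 had a further summit at +1986 (8.35), just outside the window and within 200 bp of that of replicate 1. In *mbd9-3* there were 3 summits in each replicate, at +157 (2.09), +1080 (9.50) and +1794 (10.14) in replicate 1 and at +231 (4.95), +1115 (15.29) and +1820 (12.44) in replicate 2. In wild type they lay at +217 (6.51), +1139 (14.23) and +1828 (7.17) in replicate 1 and at +220 (6.65) and +1146 (14.75) in replicate 2. The 3 positions correspond to the 5′ end, the 3′ part and the flank past the gene, where the summit at +1828 lies 385 bp beyond the annotated end with *SPX3* as the nearest gene.

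Loss summits at *SPX3* were scattered over the lists. In *mbd9-3* compared with wild type a summit was found at +1147 (4.64) in replicate 1 only, and in *arp6-1* at +1139 (10.35) in replicate 1 only. In *arp6-1 mbd9-3* compared with wild type they lay at +1139 (7.82) and +1828 (9.10) in replicate 1 and at +220 (6.36) and +1146 (14.27) in replicate 2. Only the position in the 3′ part was thus called in both replicates. In *arp6-1 mbd9-3* compared with *arp6-1* the summits lay at +1812 (2.50) and +1162 (9.55), 650 bp apart, each near the *arp6-1* summit of its own replicate, and again at +1986 (4.90) in replicate 2 outside the window. Neither *SPX3* call that involves *arp6-1* held with a flank of 250 bp or with the gene extent alone. Both held when a region common to both replicates, from summits within 200 bp, was required, and the replicates then meet past the end of the gene.

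**Figure D3:**
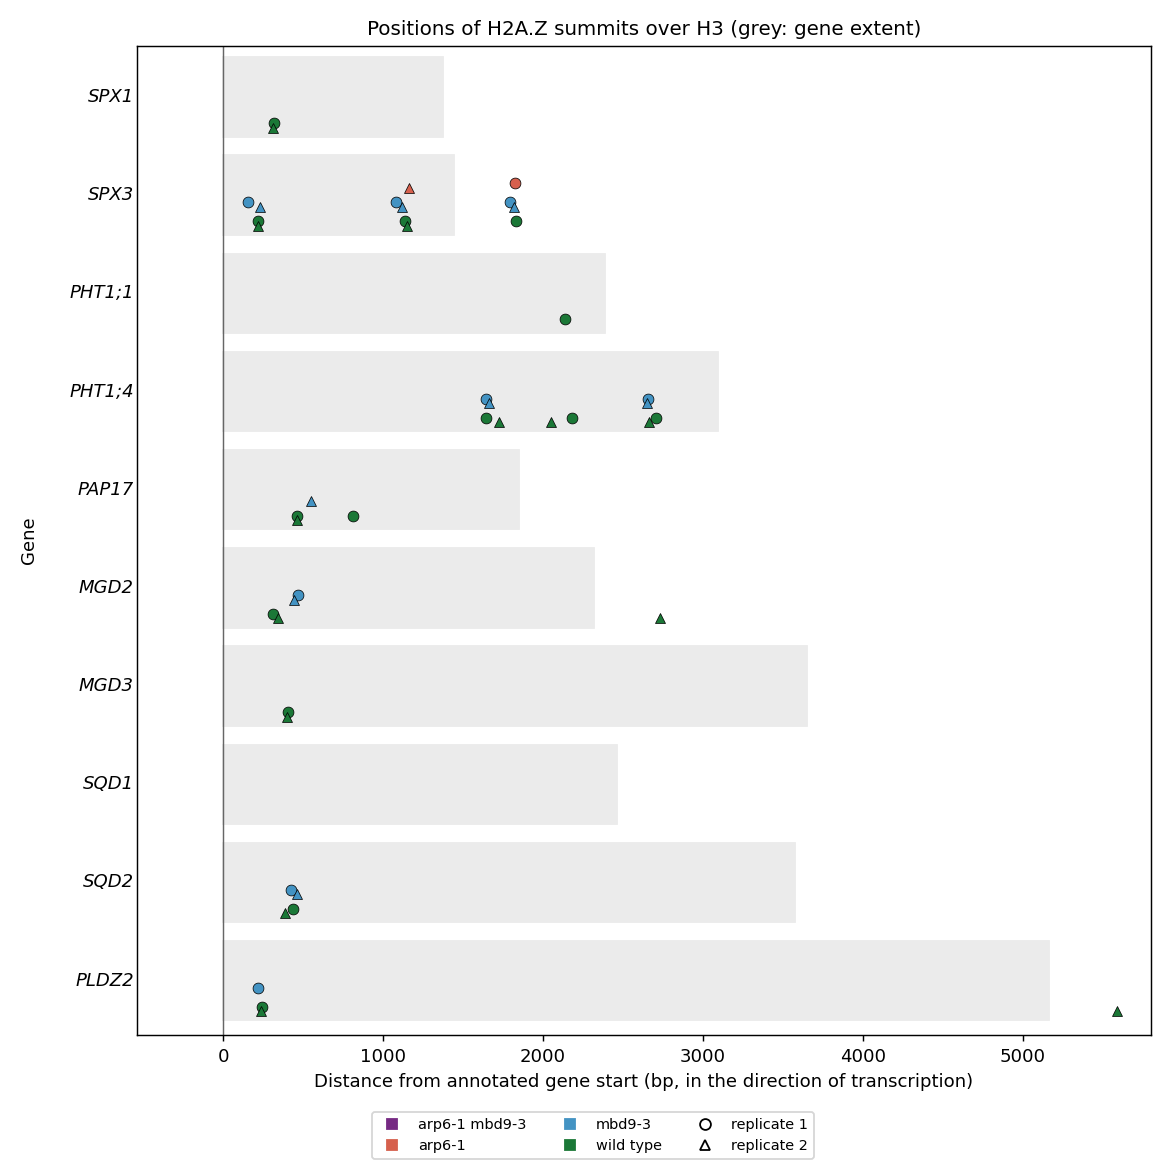
Distance of each summit over H3 from the annotated gene start (bp, in the direction of transcription), 1 block per gene with the double mutant at the top, then *arp6-1*, then *mbd9-3*, and wild type at the bottom, circles for replicate 1, triangles for replicate 2 and grey for the gene extent. The best wild-type summits of *SPX1*, *PAP17*, *MGD2*, *MGD3*, *SQD2* and *PLDZ2* lie between 200 and 500 bp after the start in both replicates, whereas those of *PHT1;4* start at 1645 bp.

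PHT1 proteins are high-affinity phosphate transporters of the plasma membrane. *PHT1;1* (chr5:17399769-17402158, − strand) had no summit over H3 in any mutant and a single one in wild type, at +2135 (3.87) in replicate 1. Its only loss summit was that in *arp6-1* compared with wild type, at +2156 (3.76) in replicate 2. Of the 50-base stretches of this gene only 61.3% occur once in the nuclear genome, against 100% in each of the other 9 genes. The authors kept reads that mapped to a single place, and the part of the repeated stretches in the few summits of *PHT1;1* was not tested.

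*PHT1;4* (chr2:16257157-16260253, + strand) carried H2A.Z far into the gene, in the coding sequence of exon 2. In *mbd9-3* its summits lay at +1646 (2.84) and +2655 (4.35) in replicate 1 and at +1662 (2.44) and +2651 (3.34) in replicate 2. In wild type they lay at +1645 (12.76), +2182 (5.65) and +2709 (6.95) in replicate 1 and at +1725 (7.11), +2047 (5.42) and +2664 (10.08) in replicate 2. The outer positions were shared by both genotypes, while the middle position had no *mbd9-3* summit in either replicate.

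*PHT1;4* was also called for loss in *mbd9-3*. Summits lay at +1466 (2.64), +1728 (3.27) and +2195 (3.82) in replicate 1 but at +2671 (6.45) in replicate 2, 476 bp away from the nearest of them. The gene was thus called both for H2A.Z over H3 in *mbd9-3* and for loss in it, a combination found in 4.56% of the 15535 genes with wild-type summits. In *arp6-1* the loss covered all 3 positions, at +1645 (12.51), +2182 (8.35) and +2709 (8.57) in replicate 1 and at +1725 (8.54), +2047 (4.50) and +2664 (11.76) in replicate 2. In *arp6-1 mbd9-3* the same bases were lost, with scores of 11.09, 2.87 and 8.54 in replicate 1 and of 9.68, 5.51 and 5.01 in replicate 2.

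*PAP17* encodes a purple acid phosphatase that is induced by phosphate starvation and senescence. Its locus (chr3:6089381-6091231, + strand) overlaps the gene AT3G17800 at its 3′ end, but all 12 of its summits over the 16 lists lay closest to *PAP17*. In *mbd9-3* a single summit lay at +551 (2.38) in replicate 2. In wild type summits lay at +458 (9.14) and +812 (3.70) in replicate 1 and at +461 (6.36) in replicate 2. The position near +460 was therefore shared by the wild-type replicates within 3 bp and had no *mbd9-3* summit within 50 bp, yet no loss summit was called in *mbd9-3*. Loss in *arp6-1* was found at the same bases, +458 (10.58) and +461 (4.70), with further summits at +890 (3.16) and +1019 (2.04) in replicate 1. Loss in *arp6-1 mbd9-3* was found at +458 (17.68) and +848 (5.21) in replicate 1 and at +461 (10.86) and +944 (3.08) in replicate 2.

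MGD2 and MGD3 are the monogalactosyldiacylglycerol synthases that make galactolipids when phosphate is scarce. The paralogs differed in *mbd9-3*. *MGD2* (chr5:6896463-6898783, + strand) had summits in *mbd9-3* at +465 (5.92) and +444 (8.91), against +309 (12.63) and +340 (3.00) in wild type. It had no loss summit in *mbd9-3* in either replicate, as was the case for 67.3% of all genes. The *mbd9-3* summits of both replicates lay further into the gene than both wild-type summits.

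*MGD3* (chr2:4743162-4746813, + strand) had no summit over H3 in *mbd9-3* or any other mutant, against +404 (15.58) and +401 (7.77) in wild type. Loss in *mbd9-3* was found at the same bases, +404 (10.08) and +401 (12.81), with an additional summit at +1293 (6.60) in replicate 1. These were strong peaks of their lists, in which 95.3% and 99.0% of the scores were lower, and a loss summit in *mbd9-3* with a score of at least 10 in both replicates was found in only 0.215% of all genes. Wild-type summits together with loss in *mbd9-3* and no *mbd9-3* summit were found in 9.64% of the 15535 genes with wild-type summits, and *MGD3* was the only such gene of the 10. The coding bases around the wild-type summits of the paralogs are shown, since both fall in the first exon while the paralogs differ in *mbd9-3*. The *mbd9-3* summits of *MGD2* lie past the printed bases. The stretches cover at most 147 bases centred between the replicates, were read from the same assembly, and held no P1BS match.
MGD2 H2A.Z site, chr5:6896765-6896860, + strand: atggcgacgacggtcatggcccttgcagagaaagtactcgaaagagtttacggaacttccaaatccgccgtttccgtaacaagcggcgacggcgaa
MGD3 H2A.Z site, chr2:4743491-4743637, + strand: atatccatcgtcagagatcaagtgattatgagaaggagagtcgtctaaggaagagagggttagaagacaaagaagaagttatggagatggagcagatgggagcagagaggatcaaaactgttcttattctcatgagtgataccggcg

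At *MGD3* loss in *arp6-1* lay at +422 (8.33) and +401 (11.87), and loss in *arp6-1 mbd9-3* at +404 (6.67) and +401 (22.0). The double mutant also had a loss summit compared with *arp6-1* at +309 (5.25) in replicate 2 only, although *arp6-1* itself had no summit over H3 there. At *MGD2* loss in *arp6-1* lay at +309 (4.35) and +431 (8.0) in replicate 1 and at +362 (4.72) in replicate 2. Loss in *arp6-1 mbd9-3* lay at +309 (14.10) and +431 (13.23) in replicate 1 and at +340 (11.24) in replicate 2. In *arp6-1* and in the double mutant both paralogs were thus called for loss. A further wild-type summit in the *MGD2* window, at +2732 (2.19) in replicate 2, lay inside the neighbour AT5G20420.

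SQD1 and SQD2 make the sulfolipid that can stand in for phosphatidylglycerol. *SQD1* (chr4:15935373-15937833, + strand) had no summit in any of the 16 lists, as was the case for 19.7% of all genes. The nearest wild-type summits lay before the gene at −1292 (10.66) in replicate 1 and −1291 (9.94) in replicate 2, inside *ZIP9* (AT4G33020). That neighbour had summits over H3 in all 4 genotypes, in *arp6-1 mbd9-3* at −1293 (7.72) in replicate 1 and at −1532 (10.88) and −1230 (7.43) in replicate 2. The reason for the lack of summits at *SQD1* was not tested.

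*SQD2* (chr5:86543-90117, − strand) had 1 summit per replicate near the start. In *mbd9-3* they lay at +425 (5.46) and +463 (4.60), against +433 (11.39) and +385 (13.75) in wild type. *SQD2* showed no loss summit in *mbd9-3*, whereas loss in *arp6-1* lay at +433 (15.23) and +387 (8.22), and loss in *arp6-1 mbd9-3* at +433 (20.25) and +385 (8.83). *SQD2* and *MGD2* shared the same presence and absence over all 16 lists, a pattern also carried by 1843 protein-coding genes when both are counted.

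PLDZ2 is a phospholipase D that helps to recycle phospholipids under phosphate starvation. *PLDZ2* (chr3:1635194-1640357, + strand) had a summit in *mbd9-3* at +214 (3.43) in replicate 1 only. In wild type summits lay at +239 (8.28) and +237 (5.91), with a second one in replicate 2 at +5592 (4.39) that lies inside the neighbour AT3G05640. No loss summit was called in *mbd9-3*. Loss in *arp6-1* lay at +238 (3.34) and +241 (8.30), and loss in *arp6-1 mbd9-3* at +239 (11.28) and +237 (6.17), with a further loss summit past the gene at +5542 (2.30) in replicate 2. Replicates of a comparison therefore placed the summit at the 5′ end of *PLDZ2* within 3 bp of each other.

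**Figure D4:**
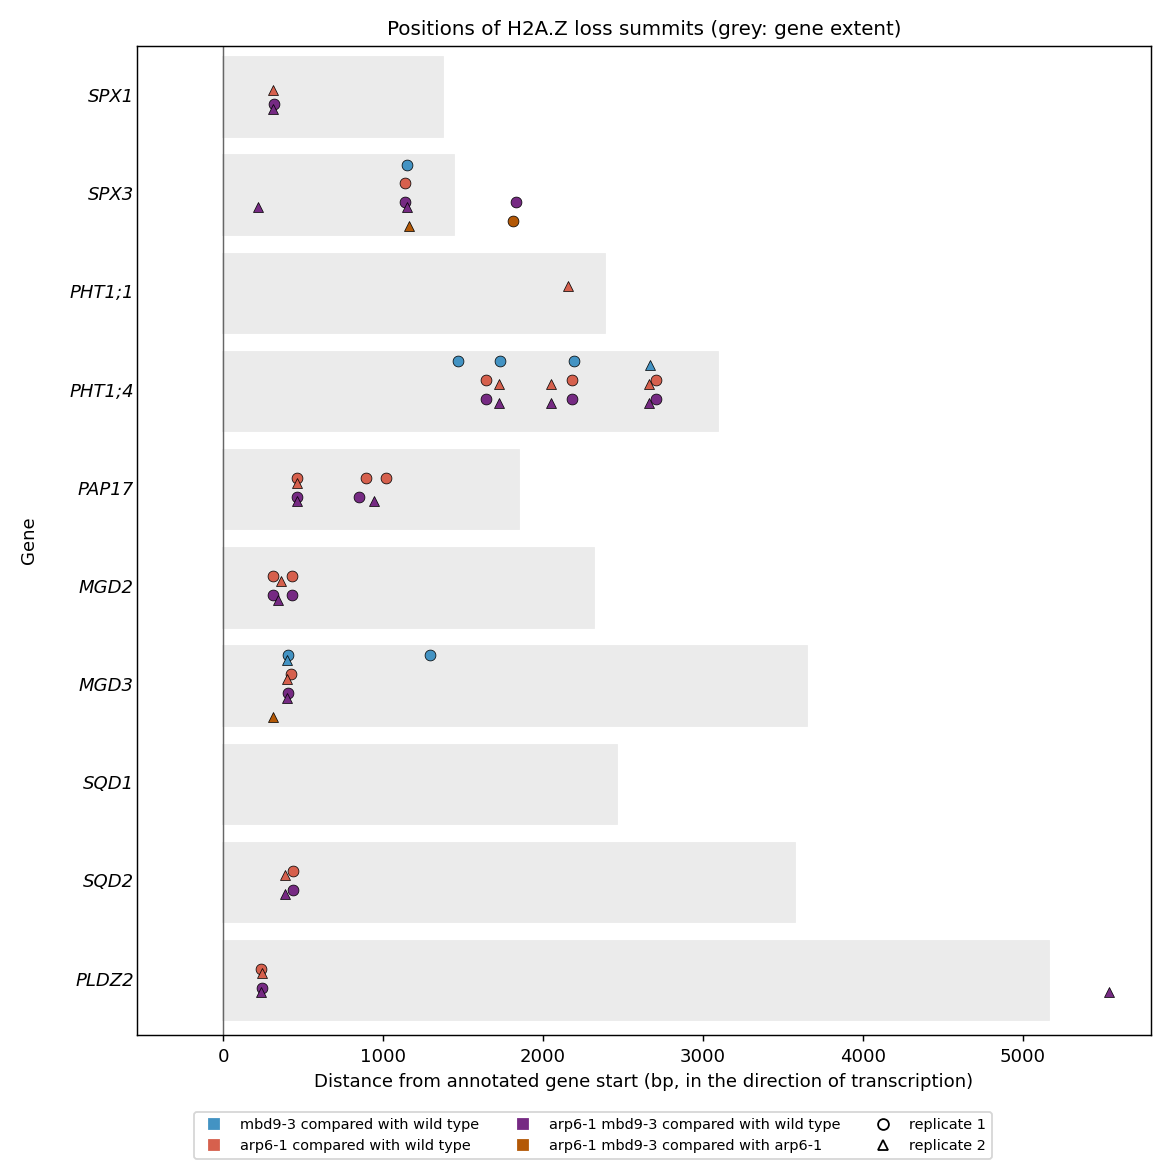
Distance of each loss summit from the annotated gene start (bp), 1 block per gene with *mbd9-3*, then *arp6-1*, then the double mutant compared with wild type, and the double mutant compared with *arp6-1* at the bottom, circles for replicate 1, triangles for replicate 2 and grey for the gene extent. In *mbd9-3* only *SPX3*, *PHT1;4* and *MGD3* have loss summits, whereas in *arp6-1* and in the double mutant many lie at the positions of wild-type summits.

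Loss summits mostly lay at or near wild-type summits. Of 56 loss summits of the 10 genes compared with wild type, 37 lay at the same base as a wild-type summit over H3 of the same replicate and 45 lay within 30 bp of such a summit. Both lists were called on the same wild-type H2A.Z library, so they are not independent and shared positions were largely built in. The same share was not counted over all loss summits. In wild type the best summit lay within 500 bp after the start in 6 of 9 genes in replicate 1, against 57.5% of all genes with a summit, and in 6 of 8 genes in replicate 2, against 56.1%. Its median distance was 433 bp for the phosphate genes with a summit and 383 bp for all genes in replicate 1, and 393 bp and 396 bp in replicate 2. The median position in these genes was thus close to that in genes at large. The best summits of *SPX3* (+1139 and +1146), *PHT1;4* (+1645 and +2664) and *PHT1;1* (+2135, replicate 1 only) lay further into the gene.

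The number of protein-coding genes with exactly the same presence and absence over the 16 lists was 19 for *MGD3*, 12 for *PHT1;1*, 16 for *SPX3*, 78 for *SPX1*, 159 for *PLDZ2*, 271 for *PHT1;4*, 397 for *PAP17* and 5402 for *SQD1*, each count including the gene itself. The rarest patterns thus belonged to *PHT1;1*, *SPX3* and *MGD3*. Each of these genes had a summit in only 1 replicate of some comparison, as did *SPX1*, *PAP17* and *PLDZ2*.

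A list of 40 other phosphate genes annotated as protein-coding was counted in the same way. The annotation also places target mimics of miR399, among them *AT4*, in this class. Over H3, 0 were called in *arp6-1 mbd9-3*, against 1.57% of all genes, and 5 (12.5%) in *arp6-1*, against 10.3%. In *mbd9-3* 13 (32.5%) were called, against 33.6%, and in wild type 26 (65.0%), against 56.6%. Loss compared with wild type was called for 8 (20.0%) in *mbd9-3*, against 11.9% of all genes. The counts were 23 (57.5%) for *arp6-1*, against 49.0%, and 29 (72.5%) for the double mutant, against 59.5%. The 8 genes with loss in *mbd9-3* were the phosphate exporter gene *PHO1*, the miR399 target mimic *AT4*, *PLDZ1*, the sulfolipid synthesis gene *UGP3*, the phosphatase gene *PS2*, the phospholipase C gene *NPC4*, *GDPD1* and the transcription factor gene *WRKY75*. At *PHO1* no loss summit of replicate 1 lay within 200 bp of one of replicate 2, so its call rests on different positions. The other genes named had loss summits of both replicates within 200 bp of each other. At *UGP3* the loss summits lay at +295 (3.58) and +317 (3.93), and at *PS2* at +1447 (4.35) and +1404 (7.21). At *WRKY75* they lay before the gene, at −304 (10.76) and −356 (8.45). Wild type had a summit over H3 at −304 (5.96) in replicate 1, and further ones within the gene at +269 (5.42) in replicate 1 and +335 (6.31) in replicate 2.

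Loss in *arp6-1 mbd9-3* compared with *arp6-1* was called for 4 of the 40 genes, against 3.54% of all genes, namely *PHF1*, *ZAT6*, *VIH1* and *VIH2*. At *ZAT6*, a zinc finger gene, it lay at +530 (3.72) in replicate 1 and at +473 (6.59) and +694 (3.06) in replicate 2, where *arp6-1* had summits over H3 at +642 (3.71) and +473 (9.65). The *PHF1* summits lay 492 and 498 bp outside that gene and nearest to AT3G52180. No wild-type summit over H3 in either replicate was found at 8 of the 40 genes, against 29.9% of all genes. These were *SPX2*, *PHR1*, *PHL1*, *PHT1;2*, *MGD1*, *PAP26*, *PDR2* and *SIZ1*. The first 3 encode a further SPX protein, PHR1 and its homolog PHL1. *MGD1*, which makes galactolipid in all conditions, nonetheless had loss summits in *arp6-1 mbd9-3* at +366 (11.92) in replicate 1 and at +320 (6.87) and +573 (4.83) in replicate 2. Loss in *arp6-1* lay at +408 (3.60) in replicate 1 and at +320 (3.36) and +573 (3.01) in replicate 2. Loss in *mbd9-3* lay at +366 (6.32) in replicate 1 only. *PHT1;2*, a close copy of *PHT1;1* in which 59.6% of the 50-base stretches occur once, had no summit in any list.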

How the data were processed

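H2A.Z and H3 ChIP-seq of 4 genotypes was used, with 2 replicates each. Per the paper's methods, the authors mapped reads to TAIR10 with Bowtie, retained those with a single location, discarded duplicates (SAMtools) and ran MACS2 2.1.1 per replicate (q limit 0.01, extension size 200). They deposited 16 summit lists, whose score is the −log10 of the q value. The lists hold no reads or peak edges, so depth is unknown, and the scaling of H2A.Z libraries between genotypes is not given in the sources used here.

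Gene extents came from RefSeq TAIR10.1 (27444 protein-coding genes on 5 nuclear chromosomes), matched by locus identifier, and 0 summits lay outside the chromosome lengths. A gene was called when a summit lay in its extent plus 500 bp in both replicates, and shares of all protein-coding genes were counted in the same way. The 10 genes and the list of 46 other phosphate genes (40 protein-coding, 6 *MIR399*) were chosen with earlier results of these data known. All 10 genes are named, and of the others those with loss in both replicates in *mbd9-3* or in *arp6-1 mbd9-3* compared with *arp6-1*, with summits in both *arp6-1 mbd9-3* replicates, or with no wild-type summit. The alternatives were other flanks, score limits, single replicates and common regions of summits within 200 bp. The counting of summits in windows and common regions was checked on simulated summits planted inside the windows. This checks the counting only and not the peaks. Python 3.11.15, numpy 2.4.6 and matplotlib 3.10.9 were used.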

Additional observations from a re-analysis of the deposited data

How the results depend on the processing

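Of 72 alternative counts of the 10 genes, 53 stayed within 1.5 times the reported count and 19 did not. The 53 include all 9 alternatives for summits over H3 in *arp6-1 mbd9-3*. Most of these could only give 0, since no gene had a summit in either replicate. For summits over H3 in *arp6-1* (1 gene), the gene extent alone, a flank of 250 bp and scores of at least 5 or 10 each gave 0, and a flank of 1000 bp gave 2. In *mbd9-3* (4 genes), scores of at least 5 gave 2 and of at least 10 gave 1. In wild type (8 genes), scores of at least 10 gave 3. For loss in *mbd9-3* (2 genes), scores of at least 5 or 10 and common regions each gave 1, which was *MGD3*. For loss in *arp6-1* (6 genes), scores of at least 5 gave 3 and of at least 10 gave 1. For loss in *arp6-1 mbd9-3* (8 genes), scores of at least 10 gave 2. For loss in *arp6-1 mbd9-3* compared with *arp6-1* (1 gene), the gene extent alone, a flank of 250 bp and scores of at least 5 or 10 each gave 0, and single replicates gave 1 to 2, since without replicate 1 *MGD3* was counted too. The P1BS count was 6 of 10 genes and 8 of 10 with the window from 1000 bases before the start, which was added after seeing the data. The causes of these changes were not tested. No paired analysis was possible because the results come from no test and each list is already made within a replicate. Depth is unknown, so the number of reads behind an absent summit cannot be given, and summits in a window can belong to a neighbouring gene.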

Other observations

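The *MIR399* genes encode the microRNA that targets *PHO2* and are themselves induced by phosphate starvation. Of 6 such genes, 0 had H2A.Z summits over H3 in both replicates in *arp6-1 mbd9-3* (1.57% of all protein-coding genes), 0 in *arp6-1* (10.3%), 1 in *mbd9-3* (33.6%) and 2 in wild type (56.6%). Loss compared with wild type was called for 0 in *mbd9-3* (11.9% of all protein-coding genes), 1 in *arp6-1* (49.0%) and 1 in the double mutant (59.5%). The annotated *MIR399* extents are shorter than each of the 10 genes, and the shares are not matched for length. The windows of *MIR399D* and *MIR399E* overlap. The 9 genes of the PHT1 transporter family include *PHT1;1* and *PHT1;4*. Over H3, 0 of the 9 were called in *arp6-1 mbd9-3* (1.57% of all genes), 0 in *arp6-1* (10.3%), 5 in *mbd9-3* (33.6%) and 7 in wild type (56.6%). Some of the 9, among them *PHT1;1* and *PHT1;2*, hold repeated stretches, whose part in these counts was not tested. Loss compared with wild type was called for 1 PHT1 gene in *mbd9-3* (11.9% of all genes), which was *PHT1;4*, 7 in *arp6-1* (49.0%) and 7 in the double mutant (59.5%).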
